A study of Mus musculus with 8 samples.

Results

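The lysyl oxidase family of the mouse has 5 genes, Lox, Loxl1, Loxl2, Loxl3 and Loxl4, and all 5 were found by their gene identifiers among the 53647 genes counted in cultured primary myotubes. The myotubes, multinucleated fibres that form when muscle precursors fuse, were grown from limb muscle of wild-type pups 2 to 3 days old and differentiated in medium with 5% horse serum. There were 4 groups of 2 libraries each: control myotubes, and myotubes given interleukin 6 (IL6), leukaemia inhibitory factor (LIF) or oncostatin M (OSM) at 250 ng/ml for 48 h, all collected 72 h after differentiation began. The labels state neither what the controls received nor whether replicates came from different animals, litters or dishes, so p-values measure only the spread between these samples, which may be technical. The family was taken by name, but with earlier results of these data known, so p-values of its members may not be free of that choice. Lox was singled out because its level was higher with each cytokine, IL6 included. The values of Lox against control and in the IL6 comparisons are therefore described without a test, whereas Loxl1 to Loxl4 were tested in all 6 pairs of groups. The libraries held 29482077 to 30025471 counts on genes and all 5 members passed the filter on low counts.

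Lysyl oxidases are copper-dependent amine oxidases that are secreted into the extracellular matrix. They oxidise lysine side chains of collagen and elastin to aldehydes, which then react with neighbouring chains to form the covalent cross-links that stiffen and stabilise fibres. Lox and Loxl1 are made as proenzymes with a propeptide that is cut off outside the cell by Bmp1-type proteinases, whereas Loxl2, Loxl3 and Loxl4 carry scavenger receptor cysteine-rich domains ahead of the catalytic domain. OSM, LIF and IL6 are related cytokines whose receptors all contain the signalling subunit gp130.

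The 4 Lox-like members share their catalytic region, and a stretch of 60 coding bases from it is shown to make the family resemblance visible. Of the stretches of that length scanned along Loxl2, it had the most bases matched in the 4 genes. It thus shows them at their most alike by that measure. Lox was not part of this search. The sequences come from the GENCODE M21 transcripts of the GRCm38 genome, are read 5′ to 3′ on the coding strand, and have in capitals the 39 bases that are identical in all 4 genes.
Loxl1: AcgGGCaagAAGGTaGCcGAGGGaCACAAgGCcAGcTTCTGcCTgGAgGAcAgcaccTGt
Loxl2: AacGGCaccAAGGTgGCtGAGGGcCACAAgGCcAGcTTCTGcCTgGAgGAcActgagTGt
Loxl3: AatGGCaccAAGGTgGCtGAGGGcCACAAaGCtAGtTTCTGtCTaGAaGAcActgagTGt
Loxl4: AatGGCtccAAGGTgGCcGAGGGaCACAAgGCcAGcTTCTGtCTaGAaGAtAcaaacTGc
The stretch covers coding bases 1501 to 1560 of 1821 in Loxl1 (chromosome 9), 1936 to 1995 of 2328 in Loxl2 (chromosome 14), 1876 to 1935 of 2262 in Loxl3 (chromosome 6) and 1891 to 1950 of 2274 in Loxl4 (chromosome 19), counted from the first base of the start codon. Against Loxl2, 53 of the 60 bases were the same in Loxl3 and 48 in each of Loxl1 and Loxl4. The longest identical runs between the coding sequences of any pair of the 5 genes were short, 11 to 32 bases, with 32 between Lox and Loxl1. In whole transcripts, no 50-base stretch of any member occurred in another member.

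Sequence shared with genes outside the family was found for Loxl2 and Loxl3 (45.8% and 9.90% of 50-base stretches) and was 0 for Lox, Loxl1 and Loxl4. In Loxl2, 2090 of 2279 coding stretches also occur in Gm21451, an unprocessed pseudogene on chromosome 14 that is listed with 0 counts in each library. Reads from that sequence have more than 1 place in the genome, so the level of Loxl2 is uncertain. In Loxl3, 535 exon bases (11.6%) overlap Htra2, a mitochondrial protease gene on the opposite strand. The strand setting of the counting is not given in the sources used here, so reads there cannot be told apart.

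Lox was by far the most abundant member. In counts-per-million values (CPM, scaled by TMM, the trimmed mean of M values) divided by exon length in kilobases, its mean level in control myotubes was 74.1 ± 1.23 (SD, n = 2), against 10.5 ± 0.917 for Loxl1, 3.66 ± 0.570 for Loxl3, 1.71 ± 0.351 for Loxl4 and 0.135 ± 0.0154 for Loxl2. This order, Lox, Loxl1, Loxl3, Loxl4 and Loxl2 from high to low, held in 8 of 8 libraries, as the plot of length-scaled levels shows. The position of Loxl2 has the reservation about its pseudogene. Lox made up 82.2% ± 1.27 of the family's length-scaled level in control myotubes, 89.0% ± 2.36 with IL6, 90.2% ± 0.793 with LIF and 90.9% ± 0.174 with OSM (SD, n = 2 each).

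**Figure D1:**
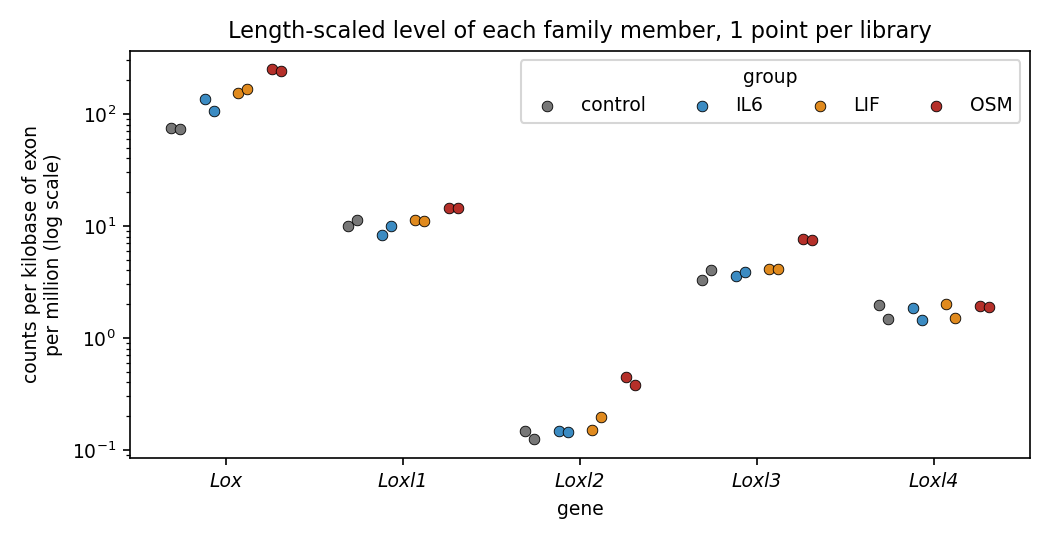
Length-scaled level (CPM per kilobase of exon, log scale) of the 5 lysyl oxidase genes, 1 point per library, coloured by group. Lox lies above the other members in every library, from 73.2 to 249.8, and Loxl2 lies lowest, from 0.124 to 0.449.

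The level of Lox was higher with each cytokine and stepped up from control to IL6 to LIF to OSM. The level of Lox (ENSMUSG00000024529), in CPM without the division by length, was 358 and 349.7 in the control libraries, 642 and 505 with IL6, 728 and 791 with LIF, and 1193 and 1144 with OSM. No library of one group overlapped the next group in this order, although the 2 IL6 libraries lay farther apart than those of any other group. Of all genes tested, 14.0% had both IL6 libraries above both controls, 21.3% both LIF above both IL6 libraries and 28.1% both OSM above both LIF libraries. The group means were 354 ± 5.88, 573 ± 97.0, 759.9 ± 44.5 and 1169 ± 35.2 CPM (SD, n = 2). Against control, the fitted level of Lox was 3.30-fold with OSM (log2 1.72, SE 0.096), 2.15-fold with LIF (log2 1.10, SE 0.095) and 1.62-fold with IL6 (log2 0.70, SE 0.094), and these values are those Lox was chosen on.

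The IL6 value was the least settled of the 3, since it moved between log2 0.51 and 0.86 when 1 library at a time was left out, and was lowest without the first IL6 replicate. With OSM against IL6 the log2 difference in Lox was 1.03, and with LIF against IL6 it was 0.41; without that IL6 library they were 1.22 and 0.59. The difference between OSM and LIF was not the ground for choosing Lox, but the same libraries entered that choice. In this comparison Lox was 1.54-fold higher with OSM (log2 0.62, SE 0.093, adjusted p = 0.00121 in edgeR's quasi-likelihood test). That p-value is thus not from data untouched by the choice. That comparison called 8.04% of the 15603 genes tested in either direction and 4.01% as higher.

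**Figure D2:**
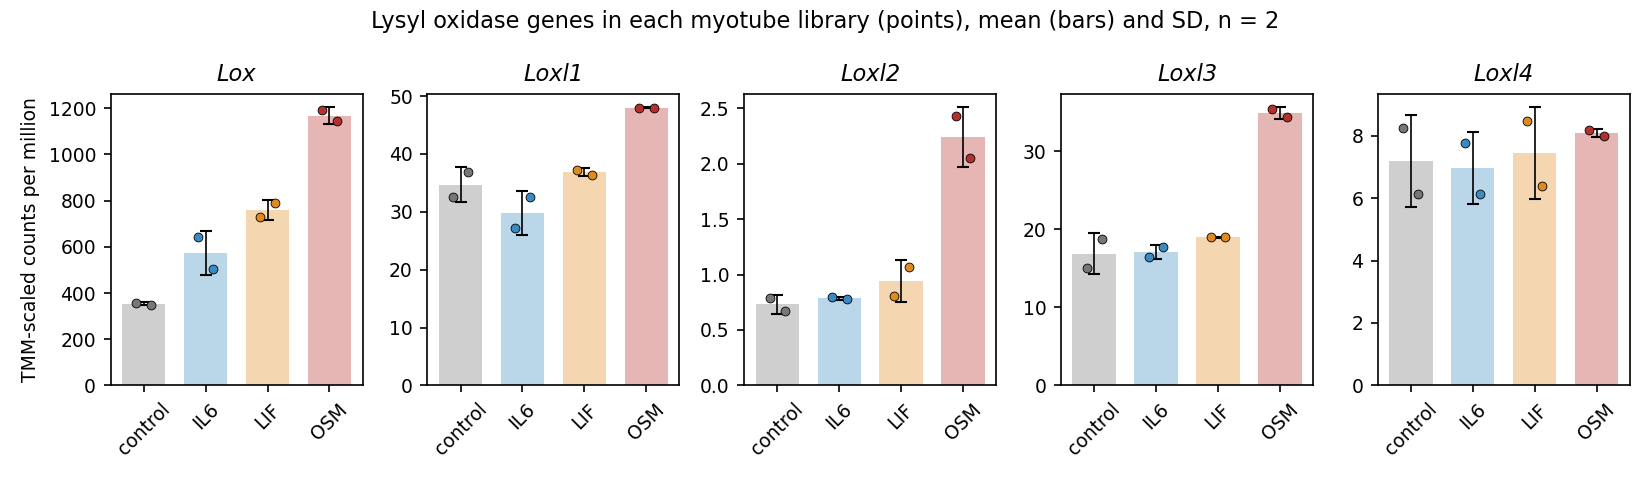
CPM (TMM-scaled, linear axes starting at 0) of each lysyl oxidase gene, with 1 panel per gene, points for the 8 libraries, bars for the mean of 2 libraries and error bars for the SD. Lox climbs from about 354 in control to 1169 with OSM without overlap between neighbouring groups, Loxl1, Loxl2 and Loxl3 have their highest libraries with OSM, and the Loxl4 libraries with OSM lie inside the ranges of control and LIF and above those with IL6.

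Of the other 4 members, Loxl1, Loxl2 and Loxl3 rose with OSM against control and Loxl4 did not pass the test. The background rate is 21.4% of all genes tested called in either direction, 10.8% called higher and 10.6% called lower, and 29.9% had both OSM libraries above both controls, as these 3 genes and Lox did. The median log2 change of the 4 was 0.76, beside -0.0029 over all genes. With LIF against control 0 of the 4 were called by edgeR, 0 by DESeq2, 0 by limma-voom and 0 at an unadjusted p under 0.05, where the background is 7.66% called, 4.2% higher and 3.46% lower. With IL6 against control 0 of the 4 were called by any of the 3 tools and 1, Loxl1, had an unadjusted p under 0.05. In that comparison edgeR called 0 of all 15603 genes (background 0.0%), limma-voom 0 and DESeq2 19, while 795 genes had an unadjusted p under 0.05. The same 3 members were higher with OSM than with LIF and than with IL6 (background 15.5% called for OSM against IL6, 8.02% as higher), and with LIF against IL6 edgeR called 0 of the 4, with 1 at an unadjusted p under 0.05 and 0 called by DESeq2 and limma-voom (background 2.78%). That 1 is Loxl1 (log2 0.30, adjusted p = 0.112), which was called without the second IL6 library (log2 0.44, adjusted p = 0.0154), without the low-count filter (adjusted p = 0.0158) and with a replicate block (adjusted p = 0.0366).

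Loxl3 (ENSMUSG00000000693), which acts on collagen and has been linked to muscle-tendon junctions, had the lowest adjusted p of the 4 in OSM against control. It was at 15.0 and 18.7 CPM in control libraries, 16.4 and 17.7 with IL6, 19.04 and 18.96 with LIF, and 35.4 and 34.4 with OSM. The OSM libraries lay above all 6 others, which spanned a narrow range. OSM raised Loxl3 2.07-fold against control (log2 1.05, SE 0.10, adjusted p = 6.9e-06 in edgeR's quasi-likelihood test). With LIF the log2 change was 0.17 (95% interval -0.054 to 0.40, adjusted p = 0.405) and with IL6 0.017 (-0.21 to 0.25, adjusted p = 0.996). The LIF value was 0.023 without the first control library and 0.35 without the second, and was not called in either case. The direct tests placed OSM above LIF by log2 0.88 (SE 0.10, adjusted p = 0.000104) and above IL6 by log2 1.03 (SE 0.10, adjusted p = 1.09e-05). Htra2, whose exons overlap those of Loxl3, had a log2 change of 0.0018 with OSM against control (SE 0.10, adjusted p = 0.998).

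Loxl2 (ENSMUSG00000034205), an enzyme known to act on the collagen IV of basement membranes, was near the lower end of what was measured. Its raw counts were 23 and 20 in control, 24 and 23 with IL6, 24 and 32 with LIF, and 71 and 61 with OSM. All 6 libraries outside the OSM group held 32 counts or fewer. The fitted log2 change with OSM against control was 1.61 (SE 0.28, 95% interval 1.0 to 2.22, adjusted p = 0.00116). With LIF it was 0.36 (-0.32 to 1.04, adjusted p = 0.592) and with IL6 0.10 (-0.60 to 0.80, adjusted p = 0.992). The LIF value was 0.55 without the first LIF library and 0.15 without the second. The LIF and IL6 intervals are wide at these counts, so changes as large as their limits remain possible. OSM exceeded LIF by log2 1.25 (SE 0.27, adjusted p = 0.0113), a call that was lost without the first LIF library (log2 1.06, adjusted p = 0.179) or without the first OSM library (adjusted p = 0.145). OSM exceeded IL6 by log2 1.51 (SE 0.28, adjusted p = 0.00217).

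Loxl1 (ENSMUSG00000032334), the member most closely tied to elastic fibres, rose less. It was at 32.6 and 36.8 CPM in control libraries, 27.2 and 32.5 with IL6, 37.3 and 36.3 with LIF, and 47.9 and 48.0 with OSM. The OSM libraries lay above all others, and both IL6 libraries lay at or below the lower control library. OSM against control gave log2 0.47 (SE 0.090, adjusted p = 0.00233). For LIF against control the log2 change was 0.085 (95% interval -0.11 to 0.28, adjusted p = 0.682). For IL6 it was -0.22 (-0.42 to -0.018, unadjusted p = 0.0349, adjusted p = 0.943), opposite in sign to the change of Lox and not past the test. It was -0.093 without the first IL6 library, -0.35 without the second and -0.12 without the second control library, and passed the test in none of these. OSM exceeded IL6 by log2 0.68 (SE 0.091, adjusted p = 0.00016). The difference between OSM and LIF was log2 0.38 (SE 0.090, adjusted p = 0.0179). It was not called when either LIF or either OSM library was left out (log2 0.36 to 0.40), and fewer of all genes were called then.

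Loxl4 (ENSMUSG00000025185) passed no test in any of the 6 comparisons. It was at 8.23 and 6.15 CPM in control, 7.77 and 6.14 with IL6, 8.48 and 6.40 with LIF, and 8.18 and 7.99 with OSM. Control, IL6 and LIF overlapped one another, and both OSM libraries lay inside the ranges of control and LIF and above both IL6 libraries. The log2 change with OSM against control was 0.17 (95% interval -0.22 to 0.55, adjusted p = 0.557 in edgeR's quasi-likelihood test), which leaves room for a rise of the size seen in Loxl1. With LIF it was 0.049 (-0.34 to 0.44) and with IL6 -0.046 (-0.44 to 0.34).

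**Figure D3:**
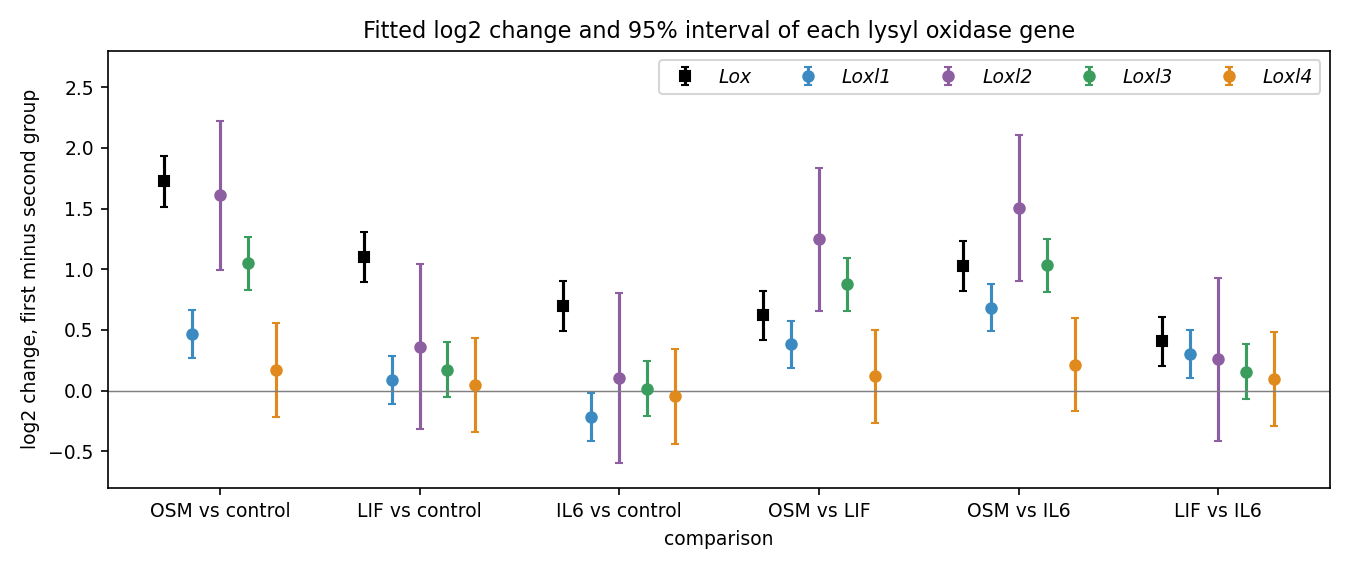
Fitted log2 change (first minus second group) with its 95% interval for each of the 5 genes in the 6 comparisons, with Lox as squares. In OSM against control the intervals of Lox, Loxl1, Loxl2 and Loxl3 lie above 0, and in IL6 against control Lox is at 0.70 and the other 4 are at -0.22 to 0.10.

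The Lox locus also carries AC161119.1, an antisense gene with 549 exon bases, 86 of which lie inside the Lox gene and 30 of which overlap Lox exons. It was picked for this overlap. It was at 12.9 and 13.6 CPM in control libraries, 21.9 and 16.7 with IL6, 23.4 and 22.3 with LIF, and 40.7 and 37.1 with OSM. It rose with OSM (log2 1.55, SE 0.12, adjusted p = 7.01e-07) and with LIF (log2 0.79, SE 0.12, adjusted p = 0.00141), and with IL6 its log2 change was 0.54 (SE 0.12, adjusted p = 0.438). The first IL6 library was again the higher of the 2, as it was for Lox. Without the strand setting, reads in the shared bases cannot be assigned to one gene or the other.

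The protein-coding genes whose profile lay nearest to that of Lox, by the root mean square difference of log2 CPM after centring each gene on its own mean over the 8 libraries, were Gipr, Mt1, Cp, Sncb and Il13ra1, out of 10745 candidates with a mean of at least 100 counts. The differences were 0.087, 0.11, 0.124, 0.136 and 0.144 on the log2 scale. Gipr is the receptor for the incretin GIP, Mt1 a metallothionein, Cp the copper-carrying ferroxidase ceruloplasmin, Sncb beta-synuclein and Il13ra1 a receptor chain for interleukin 13. Their log2 changes against control ran from 1.47 to 1.87 with OSM, from 0.93 to 1.20 with LIF and from 0.47 to 0.62 with IL6. These points share libraries and were picked for likeness, so the values are a description. Gipr, the nearest, had mean levels of 31.3 ± 1.18 CPM in control, 47.3 ± 11.1 with IL6, 61.1 ± 1.95 with LIF and 92.8 ± 3.23 with OSM (SD, n = 2), and like Lox it had its widest spread in the IL6 group. By Pearson's r over the same 8 libraries, the nearest gene was instead Mmp19, a matrix metalloproteinase, at 0.996, and 2 of the 5 nearest genes by r were among those 5. The other lysyl oxidase genes had root mean square differences from Lox of 0.33 for Loxl2, 0.37 for Loxl3, 0.50 for Loxl1 and 0.58 for Loxl4.

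**Figure D4:**
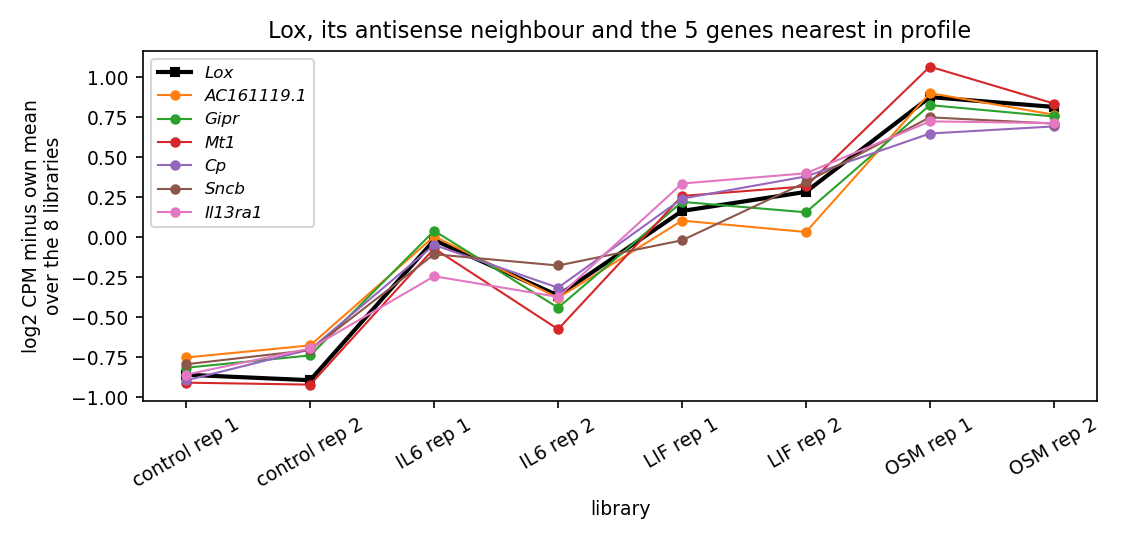
Log2 CPM of Lox, its antisense neighbour AC161119.1 and the 5 genes nearest to Lox in profile, each minus its own mean over the 8 libraries, plotted by library. The 7 lines climb from control to OSM, and Lox runs from -0.89 to 0.88.

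Genes linked to lysyl oxidases were followed in 7 lists holding 72 tested genes, each counted once. The lists cover substrates, processing and scaffold, collagen modification, copper handling and other targets of hypoxia-inducible factors. Not all 72 therefore act with lysyl oxidases. Most genes named from the lists below were picked for the largest OSM changes among called genes, so their adjusted p-values are descriptions. OSM raised 23 of the 72 and lowered 13, LIF raised 12 and lowered 7, and with IL6 edgeR called 0, with 15 at an unadjusted p under 0.05 and 0 called by DESeq2 and by limma-voom. The lists were put together with results of these libraries known, and their counts are descriptions beside the background rates. Over all genes tested, 21.4% were called with OSM (10.8% higher, 10.6% lower) and 7.66% with LIF (4.2% higher, 3.46% lower). The median log2 change of the 72 genes was 0.060 with OSM and 0.027 with LIF. The absence of IL6 calls depended on the libraries and the filter. Without the second IL6 library edgeR called 221 of 16098 genes with IL6, among them 2 fibrillar collagen, 2 elastic fibre, 2 collagen IV, 1 processing or scaffold and 1 copper gene. Without the low-count filter it called 97 of 27694 genes, among them 2 collagen IV chains and 1 processing or scaffold gene.

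Genes for proenzyme processing and for the scaffold on which lysyl oxidases assemble changed in both directions: of 7 tested, OSM raised 3 and lowered 3, LIF raised 1 and lowered 2, and the median log2 change with OSM was 0.064. Bmp1, the proteinase that releases active Lox from its proenzyme, was at 58.8 and 63.5 CPM in control, 63.4 and 62.0 with IL6, 82.5 and 83.0 with LIF, and 158.7 and 152.9 with OSM. Its order matched that of Lox except that IL6 did not separate from control. OSM raised it by log2 1.35 (SE 0.063, adjusted p = 1.38e-08) and LIF by log2 0.44 (SE 0.063, adjusted p = 0.00104). The levels with OSM were above those with LIF by log2 0.91 (adjusted p = 3.18e-06). Pcolce2, an enhancer of procollagen processing, rose with OSM (log2 0.73, SE 0.10, adjusted p = 0.000158) and had log2 0.14 with LIF (adjusted p = 0.52).

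Postn, the matricellular protein periostin, which binds Bmp1, went the other way. It was at 17.3 and 16.0 CPM in control, 10.1 and 12.7 with IL6, 9.55 and 8.94 with LIF, and 5.06 and 5.07 with OSM, so the order of the groups was that of Lox turned round. OSM lowered it (log2 -1.71, SE 0.13, adjusted p = 9.29e-07), as did LIF (log2 -0.85, adjusted p = 0.00117), and the value for IL6, log2 -0.55, did not pass the test (adjusted p = 0.438). Thbs1, thrombospondin 1, fell by log2 0.54 with OSM and by log2 0.60 with LIF (adjusted p = 0.0019 and 0.00311). Fn1, fibronectin, a matrix protein that binds both Bmp1 and Lox, had log2 0.064 with OSM (SE 0.060, adjusted p = 0.50). Fmod, fibromodulin, a small proteoglycan that binds Lox and collagen, was noticed after its values were seen and had few counts: 55 and 65 in control, 33 and 55 with IL6, 48 and 29 with LIF, and 3 and 5 with OSM.

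The substrates also divided. Of 10 fibrillar collagen chains tested, OSM raised 4 and lowered 1 and LIF raised 4 and lowered 0 (median log2 0.31 and 0.17). Fewer chains were called with LIF without either LIF library, either OSM library or the first control library, and fewer of all genes were too. Col27a1 rose by log2 1.78 with OSM (SE 0.17, adjusted p = 6.67e-06) and 0.69 with LIF (adjusted p = 0.0322). Col3a1 rose by log2 0.49 and 0.37 (adjusted p = 0.000373 and 0.00849) and Col5a2 by log2 0.38 and 0.28 (adjusted p = 0.000375 and 0.0089), whereas Col11a1 fell by log2 0.88 with OSM (adjusted p = 0.0152). Col1a1, a chain of the most abundant fibrillar collagen, was at 309 and 169 CPM in control, 92.2 and 161 with IL6, 183 and 118 with LIF, and 72.1 and 84.7 with OSM. Its replicates differed widely, and its log2 change with OSM, -1.61 (SE 0.47, adjusted p = 0.0858), did not pass the test.

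Collagen IV, the network-forming collagen of basement membranes, fell: 3 of 4 chains tested were lowered by OSM and 3 by LIF, with medians of log2 -0.86 and -0.40. Without the second LIF library fewer chains were called with LIF, and fewer of all genes were too. Col4a1 went from 519.6 ± 32.8 CPM in control to 258.6 ± 9.32 with OSM (SD, n = 2; log2 -1.01, SE 0.086, adjusted p = 2.93e-06), and Col4a2 fell by log2 0.72 (SE 0.068, adjusted p = 5.06e-06). Loxl2, the member known for acting on this collagen, rose in the same comparison.

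Elastic fibre genes moved both ways: of 12 tested, OSM raised 5 and lowered 4 and LIF raised 3 and lowered 2 (median log2 -0.12 and -0.10). Fewer were called with LIF when its second library was left out, as over all genes. Emilin1 (log2 1.13, SE 0.080, adjusted p = 3.54e-07) and Fbln2 (log2 1.23, SE 0.14, adjusted p = 3.49e-05) rose with OSM. Fbln5, which tethers Loxl1 to elastic fibres, fell by log2 1.18 (SE 0.13, adjusted p = 2.82e-05), and Fbn2, a fibrillin, fell by log2 1.37 (SE 0.18, adjusted p = 0.000108). Eln, elastin itself, had 2 counts in 1 control library and 0 in the other 7, so the classical elastin substrate was barely detected.

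Inside the cell, genes that hydroxylate and fold procollagen leaned upward with OSM: of 17 tested, 8 rose and 1 fell, and with LIF 2 rose and 0 fell (median log2 0.18 and 0.12). Fewer were called with OSM without the second OSM library, and with LIF without either LIF library, as over all genes. Plod3, a lysyl hydroxylase whose products also enter cross-links, was at 112 and 107 CPM in control, 120 and 122 with IL6, 163 and 165 with LIF, and 238 and 227 with OSM. It rose by log2 1.09 with OSM (SE 0.058, adjusted p = 3.38e-08) and by log2 0.58 with LIF (adjusted p = 5.84e-05), and 11.7% of its exon bases overlap Znhit1 on the opposite strand. P3h3, Crtap and P4ha3, which take part in prolyl hydroxylation, rose with OSM by log2 0.51, 0.50 and 0.48 (adjusted p = 0.00107, 0.000252 and 0.0248).

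With OSM, copper supply genes were called at about the rate of all genes. Of 10 tested, 1 rose and 1 fell, which is 20.0% beside 21.4% of all genes. With LIF 0 were called, beside 7.66% of all genes, and DESeq2 and limma-voom called 0. In that comparison 2 had an unadjusted p under 0.05. Atp7a, the pump that delivers copper to secreted enzymes, had log2 -0.040 with OSM (SE 0.072, adjusted p = 0.75). The related pump Atp7b had log2 0.60 (SE 0.17, adjusted p = 0.0275), and Sco1, a mitochondrial copper chaperone, had log2 -0.26 (SE 0.087, adjusted p = 0.0499). Only 1 of the 2 OSM calls was made with DESeq2. Fewer were left without either OSM, either control or either LIF library, as over all genes. With LIF, more were called without either IL6 library, again as over all genes.

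Lox is also a known target of hypoxia-inducible factors. Of 12 other such targets tested, 2 rose and 0 fell with OSM, and 2 rose and 0 fell with LIF (median log2 -0.011 and 0.032). That is 16.7% with each cytokine, beside 21.4% of all genes called with OSM and 7.66% with LIF. Fewer were called for OSM without the first OSM library and for LIF without either LIF library, as over all genes. Ndrg1, a stress-responsive gene, rose with OSM and LIF (log2 0.82 and 0.51, adjusted p = 8.89e-06 and 0.00209). Slc2a1, a glucose transporter, rose with OSM (log2 0.40, adjusted p = 0.00434) and Ero1a, an endoplasmic reticulum oxidase, with LIF (log2 0.32, adjusted p = 0.0082).

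**Figure D5:**
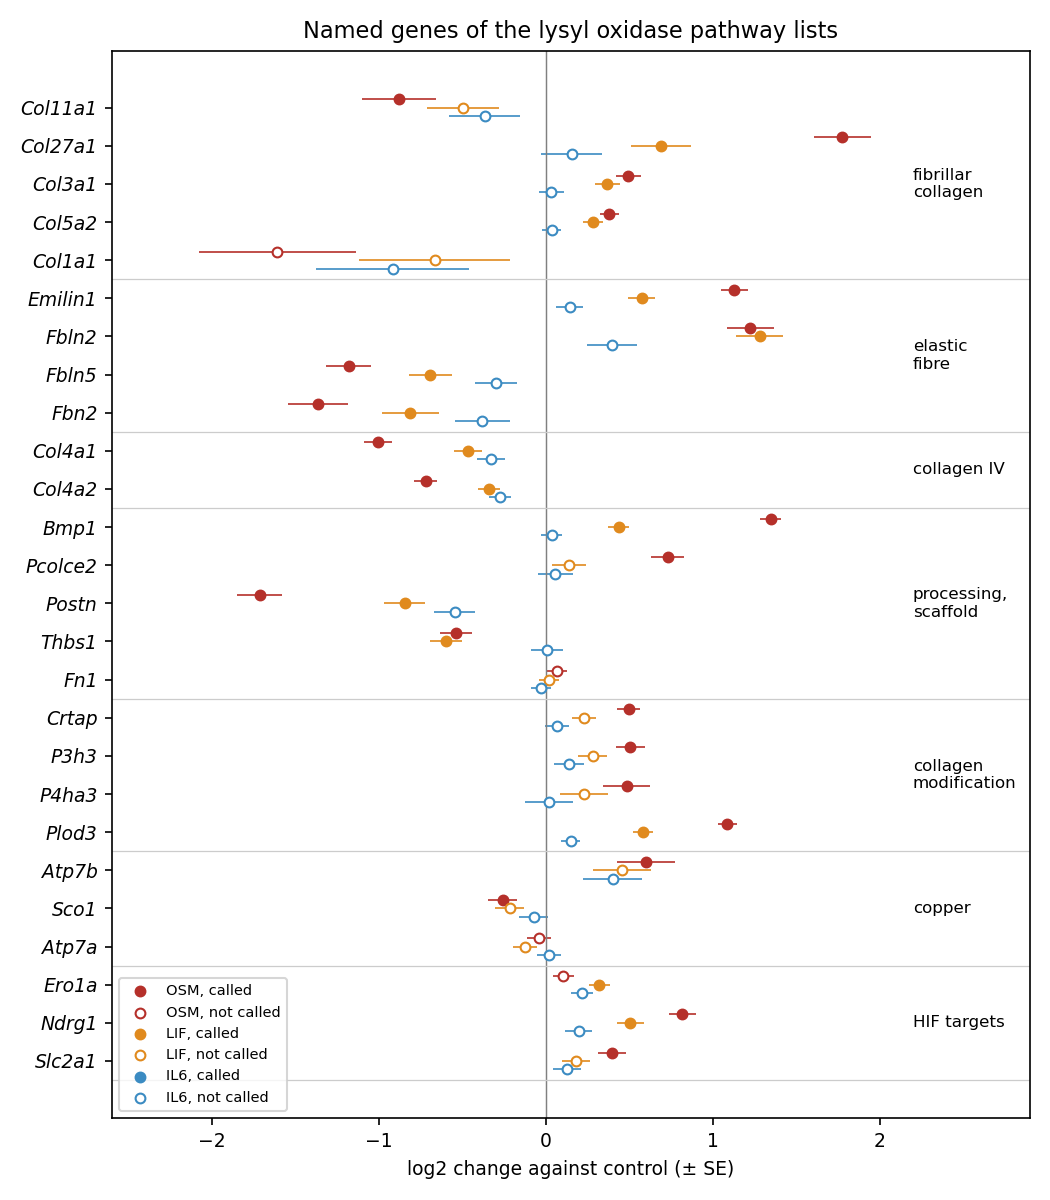
Log2 change against control (points) with its SE (bars) for the named genes of the 7 lists, for OSM, LIF and IL6, with filled points for calls at an adjusted p under 0.05. With OSM, Col27a1 (1.78) and Bmp1 (1.35) lie farthest right, and Postn (-1.71) and Col1a1 (-1.61, not called) farthest left. No IL6 point is filled.

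In bulk RNA, fewer cells of a type and less RNA per cell cannot be told apart, and other cell types of a limb muscle culture can express lysyl oxidases. The summed level of 8 myotube markers was 20741 to 21533 CPM in control, 17809 to 20437 with IL6, 19001 to 20207 with LIF and 18320 to 18476 with OSM. These markers did not move together: OSM and LIF each raised Des and lowered Myh8 and Myog. Detected means here that a marker had any count in any library. Markers of unfused precursors (4 of 4 detected) summed to 206 to 218, 205 to 207, 227 to 228 and 249.99 to 250.99 CPM in the same order. OSM raised Pax7 and Myf5, and Vcam1 and Cdh15 were not called. Of 8 fibroblast markers 6 were detected, with Lum and Tcf21 at 0 in every library. Thy1, Dpt and Pi16 were under 10 mean counts, and only Pdgfra, Dcn and Cd34 passed the low-count filter. The sum was 33.5 to 40.3 CPM in control, 36.7 to 40.2 with IL6, 33.8 to 36.1 with LIF and 29.2 to 32.5 with OSM. Its members went opposite ways with OSM: Cd34 fell from 24.7 to 14.6 CPM (log2 -0.76, adjusted p = 0.000449), Pdgfra rose from 8.92 to 12.8 (log2 0.53, adjusted p = 0.0193) and Dcn was at 2.91 and 3.28 (adjusted p = 0.678). Pericyte and smooth muscle markers (5 of 5 detected) went from 34.4 to 34.9 CPM in control to 15.7 to 20.1 with OSM, with 20.97 to 33.0 for IL6 and 23.3 to 27.9 for LIF. Macrophage markers (5 of 5 detected, 4 of them under 10 mean counts) summed to 2.06 to 2.32, 2.77 to 2.98, 2.69 to 2.75 and 4.09 to 4.62 CPM from control to OSM. Endothelial markers (4 of 5 detected, Emcn at 0, Kdr and Tek under 10 mean counts) summed to 1.06 to 1.91 over all libraries. The macrophage sum was mostly Cd68, at a mean of 1.98 CPM in control and 4.05 with OSM. Csf1r went from 0.068 to 0.22, Lyz2 from 0.085 to 0.051, and Ptprc was at 0.034 in both. Adgre1 had 1 count in 1 control library. The precursor sum and the macrophage sum, the latter through Cd68, were highest with OSM, as Lox was. The fibroblast sum and the pericyte sum, the latter mostly through Pdgfrb, were lowest there. The part of these cell types in the lysyl oxidase values was not tested.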

How the data were processed

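RNA from 8 libraries of primary myotubes (4 groups of 2) was prepared with a stranded mRNA kit, per the labels' protocols. The authors deposited raw read counts per gene, 1 file per library; the submitters' processing notes name Trim Galore 0.6.5, STAR 2.7.3a, HTSeq 0.11.1 and the build GRCm39. The strand setting and annotation release are not given in the sources used here. HTSeq summary lines (11.7% to 12.7% of each file's total) were left out of library sizes. Symbols, lengths and sequences came from GENCODE M21 (GRCm38), which holds 52094 of the 53647 identifiers; because builds differ, no coordinates are given. One alias (Ero1l for Ero1a) was resolved through the RefSeq gene table.

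Genes were tested with edgeR 4.0.16 in R 4.3.3 on counts: filterByExpr with a minimum count of 10 (15603 genes), TMM scaling, a mean per group over 8 libraries (4 residual degrees of freedom), robust quasi-likelihood F tests and Benjamini-Hochberg adjustment within each comparison, with calls at an adjusted p under 0.05. Intervals are 95%. The procedure was tested on simulated data. Chi-square per gene between replicates was 3.04 to 12.3, so no library pair was a duplicate. Alternatives were DESeq2 1.42.0, limma-voom (limma 3.58.1), other scaling, no filter, 2 groups per fit, a replicate block and leaving out each library.

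Members and lists were chosen with earlier results of these data known. Named from each list were up to 4 genes with the largest OSM change among those called with any cytokine at a mean of at least 100 counts, plus Bmp1, Fn1, Col1a1, Col3a1, Eln and Atp7a, and the 5 genes most like Lox (log2 CPM with a prior count of 2, no Gm or Rik names).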

Additional observations from a re-analysis of the deposited data

How the results depend on the processing

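Of 449 recomputed values of the 5 genes, 424 were classed as unchanged. For tested values that meant the same direction and side of the threshold. For the Lox values described without a test it meant the same direction and a shift under 1 replicate SD. Of those Lox values, 4 kept their direction but moved farther. The calls of Lox for OSM against LIF and of Loxl1, Loxl2 and Loxl3 for OSM against control held in each alternative run. With 1 library left out, log2 changes of Lox ran from 1.70 to 1.76 for OSM against control, 0.51 to 0.86 for IL6 against control, 0.87 to 1.22 for OSM against IL6 and 0.24 to 0.59 for LIF against IL6. Those of Loxl1 ran from -0.0012 to 0.18 for LIF against control, 0.36 to 0.40 for OSM against LIF and 0.18 to 0.44 for LIF against IL6. Those of Loxl2 ran from -0.0064 to 0.22 for IL6 against control and 1.06 to 1.47 for OSM against LIF, and those of Loxl3 from -0.13 to 0.19 for IL6 against control. For Loxl4 they ran from -0.019 to 0.39 (OSM against control), -0.17 to 0.27 (LIF against control), -0.24 to 0.18 (IL6 against control), -0.068 to 0.34 (OSM against LIF) and -0.12 to 0.29 (LIF against IL6). Loxl1 became called for LIF against IL6 without the low-count filter (log2 0.31), with a replicate block (log2 0.31) and without the second IL6 library (log2 0.44). Same-numbered libraries of different groups had correlations of deviations from 0.0071 to 0.181, all positive. The main fit did not pair libraries by number. The replicate block changed no other call of the 5 genes. Over all genes, however, the block raised the number of calls in each comparison. Calls went from 3335 to 3966 for OSM against control and from 1195 to 1670 for LIF against control. For LIF against IL6 they went from 434 to 826, and for IL6 against control from 0 to 9. An effect shared by libraries of the same number was not tested. DESeq2 gave no adjusted p for Loxl2 in IL6 against control. With 1 library left out, the lone library of its group is assumed to vary like the others, and calls in the lists then ran, for fibrillar collagens, from 0 to 5 with LIF and 0 to 2 with IL6; for elastic fibre genes, from 3 to 7 and 0 to 2; for collagen IV, from 1 to 3 and 0 to 2; for processing and scaffold genes with IL6, from 0 to 1; for collagen modification, from 5 to 12 with OSM and 1 to 3 with LIF; for copper genes, from 0 to 2 with OSM, 0 to 1 with LIF and 0 to 1 with IL6; and for hypoxia-inducible factor targets, from 1 to 2 with OSM and with LIF. Without the low-count filter, 8 elastic fibre genes were called with LIF, and 2 collagen IV chains and 1 processing gene with IL6. The replicate block gave 4 collagen modification genes with LIF. Copper genes called with OSM numbered 1 under DESeq2, DESeq2-type size factors, no filter, 2 groups per fit and no TMM, and with LIF 1 under no filter, 2 groups per fit and the block. Ranking by Pearson's r kept 2 of the 5 genes most like Lox. For OSM against control, LIF against control and OSM against LIF, calls over all genes also fell when 1 library of a compared group was left out. Losses in a list or member there are thus not particular to it. The cause of these shifts was not tested. Counting error limits Loxl2, which had 20 to 71 counts per library.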

Other observations

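Loxl4 was higher in replicate 1 than in replicate 2 in each of the 4 groups: 240 and 183 counts in control, 235 and 182 with IL6, 252 and 191 with LIF, and 239 and 238 with OSM. Replicate numbers are not stated to mark a shared culture or day, and this was noticed after the values were seen. Lox had its higher count in replicate 1 in control (10435 and 10415), with IL6 (19410 and 14971) and with OSM (34887 and 34084). With LIF its higher count was in replicate 2 (21657 and 23625).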
